A study of Mus musculus with 2 samples.

Results

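Accessible chromatin was described at Zbtb7b, Tox and Patz1, 3 transcription factor genes of the CD4 T cell lineage, which were taken by name out of 21938 protein-coding genes of the GENCODE vM21 annotation. For each gene the peaks and footprints in the gene body and 20 kb on each side were taken from the lists of each library. These spans held 29 of 50648 peaks of the main list in replicate 1 and 40 of 49872 in replicate 2. The libraries came from DNase-seq, which sequences the ends left by the enzyme DNase I in nuclei, on whole thymus of female B6CASTF1/J mice (B6 by CAST hybrids) aged 18 to 20 months. They form 1 group of 2 libraries, which the labels number as biological replicates 1 and 2. The labels give them 1 donor record and 2 biosample records, and nothing says that they came from different animals, so their spread may be a technical one. No younger mice or other comparison group were analysed here, and no test between groups was possible. Values are described without p-values, and an SD over 2 libraries is a coarse estimate of the error.

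Thymocytes pass a stage with both CD4 and CD8 on the surface and then become either CD4 helper or CD8 cytotoxic T cells. Zbtb7b encodes ThPOK, a zinc finger factor with a BTB domain that commits cells to the CD4 lineage and represses CD8 lineage genes. In mice, cells without ThPOK turn to the CD8 lineage, and the gene is held silent in CD8 cells by a silencer upstream of its distal promoter, which Runx factors bind. Tox encodes a factor with an HMG box that is induced during positive selection and is needed for the CD4 lineage in mice. Patz1, also known as MAZR, encodes a BTB and zinc finger factor that binds at the CD8 locus and, with Runx factors, helps to repress Zbtb7b in CD8 cells.

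The thymus label was checked against marker promoters. A promoter was called open where a peak of the main list, the shorter of the 2 peak lists of a library, lay within 1 kb of a start site in both libraries. Of 12 thymocyte genes 11 were open, against 1 of 5 genes of thymic epithelium, 0 of 5 each for B cells and myeloid cells, 2 of 4 for fibroblasts, 1 of 3 for endothelium and 0 of 3 each for adipocytes and erythroid cells. The epithelial factor gene Foxn1 had no promoter peak in either list of either library. The exception among thymocyte genes was Cd4, which had no promoter peak in the main list of replicate 1. Whole tissue was used, so fewer cells with an open site and less opening per cell cannot be told apart. Peak signal is the value that the authors deposited for each peak, with no stated scale, and its median over the main list was 1.66 in replicate 1 and 1.43 in replicate 2. Over 37494 peaks that matched 1 to 1 between libraries the median log2 ratio of replicate 1 to replicate 2 was 0.17. Ratios below are given after this median was subtracted, and the central 95% of all pairs then lay between -0.69 and 0.99.

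All 3 genes had an open promoter in both libraries, as did 53.6% of all protein-coding genes. With the longer list all 3 were again open, against 58.1% of all genes. All 3 also had footprints, short protected stretches inside open DNA, within 1 kb of a start site in both libraries, against 56.4% of all genes. The strongest promoter peak averaged 3.36 ± 1.01 at Zbtb7b, 4.15 ± 0.231 at Tox and 5.30 ± 0.110 at Patz1 (SD, n = 2 each). In each library the order was Patz1, Tox and Zbtb7b from high to low. The gap between Zbtb7b and Tox was smaller than the SD at Zbtb7b, so by this measure they did not differ beyond their spread. Tox was still the higher of these in each library, and the values of Patz1 lay above both in each library. None of the promoters was among the strongest: among genes with a promoter peak, Zbtb7b lay at percentile 23.4 in replicate 1 and 41.1 in replicate 2, Tox at 35.5 in replicate 1 and 43.4 in replicate 2, and Patz1 at 46.1 in replicate 1 and 52.4 in replicate 2.

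**Figure D1:**
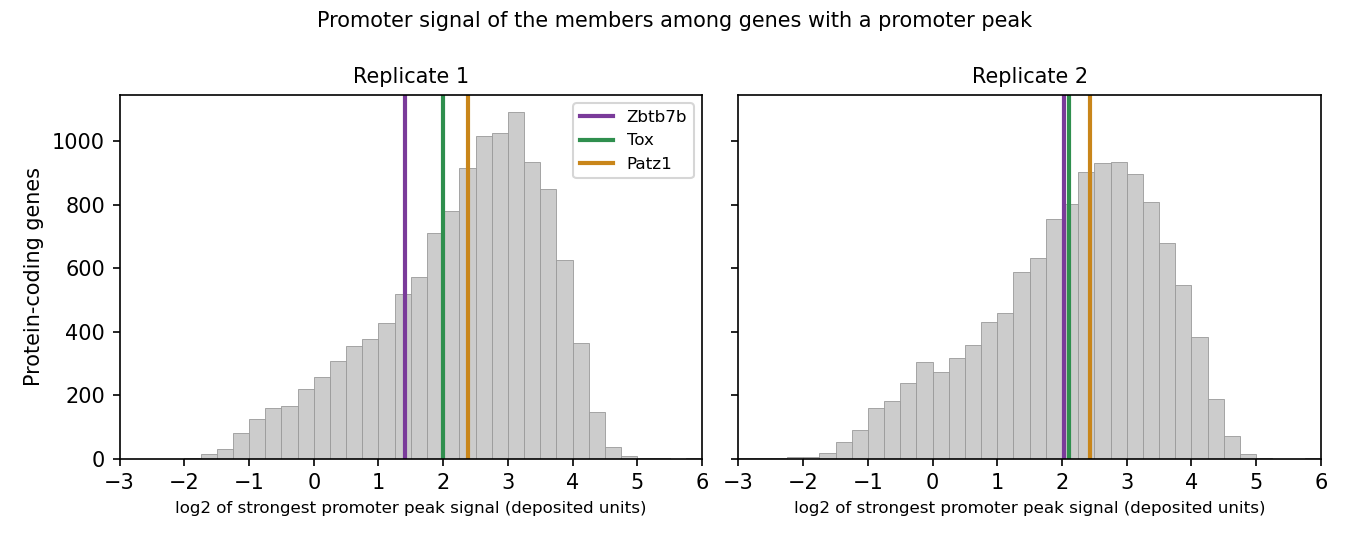
Number of protein-coding genes (vertical axis) by the log2 of their strongest promoter peak signal in deposited units (horizontal axis), for replicate 1 on the left and replicate 2 on the right, over genes with a promoter peak in that library. The coloured lines mark Zbtb7b, Tox and Patz1, which lie in the lower or middle part of the distribution, from percentile 23.4 to percentile 52.4.

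Peaks per length were compared with genes of similar length, that is, with a gene body within a factor of 2 of their own. Zbtb7b ranked high whether or not nearby peaks were joined, whereas the ranks of Tox and Patz1 depended on it. Zbtb7b had 8 peaks in replicate 1 and 15 in replicate 2 in its span of 57.1 kb, or 14.0 and 26.3 per 100 kb in replicates 1 and 2. This placed it at percentiles 91.2 and 97.8 of 8091 genes, whose median was 5.42 and 4.85 peaks per 100 kb. Patz1, in a span of 60.2 kb, had 9 and 11 peaks in replicates 1 and 2, or 14.9 and 18.3 per 100 kb, at percentiles 93.6 and 95.2 of 8062 genes. Tox spans 345 kb and had 12 and 14 peaks in replicates 1 and 2, or 3.48 and 4.06 per 100 kb, at percentiles 81.3 and 87.0 of 1292 genes, whose median was 1.41 and 1.17. These counts include runs of adjoining peaks. With peaks within 500 bp joined in all genes, Zbtb7b stayed high, at percentiles 97.7 and 99.0, whereas Tox was at percentiles 58.1 and 75.6 and Patz1 at 58.8 and 77.2 in replicates 1 and 2. The joined densities were 1.45 and 2.03 per 100 kb at Tox, against medians of 1.08 and 0.898, and 4.98 and 6.64 at Patz1, against 3.92 and 3.65. Footprints in replicates 1 and 2 numbered 84.0 and 165 per 100 kb at Zbtb7b, against medians of 25.7 and 26.6 at genes of similar length. At Patz1 they numbered 73.1 and 89.7, against 25.1 and 26.0. At Tox they numbered 12.5 and 18.5, against 5.64 and 5.56, at percentiles 77.3 and 86.4. Per kb covered by main-list peaks, the footprints inside these peaks numbered 16.8 and 19.1 at Zbtb7b in replicates 1 and 2. They numbered 10.1 and 13.9 at Tox and 11.2 and 11.8 at Patz1, against 14.7 over the genome in each library. By this measure Zbtb7b lay above the genome and Tox and Patz1 below it.

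**Figure D2:**
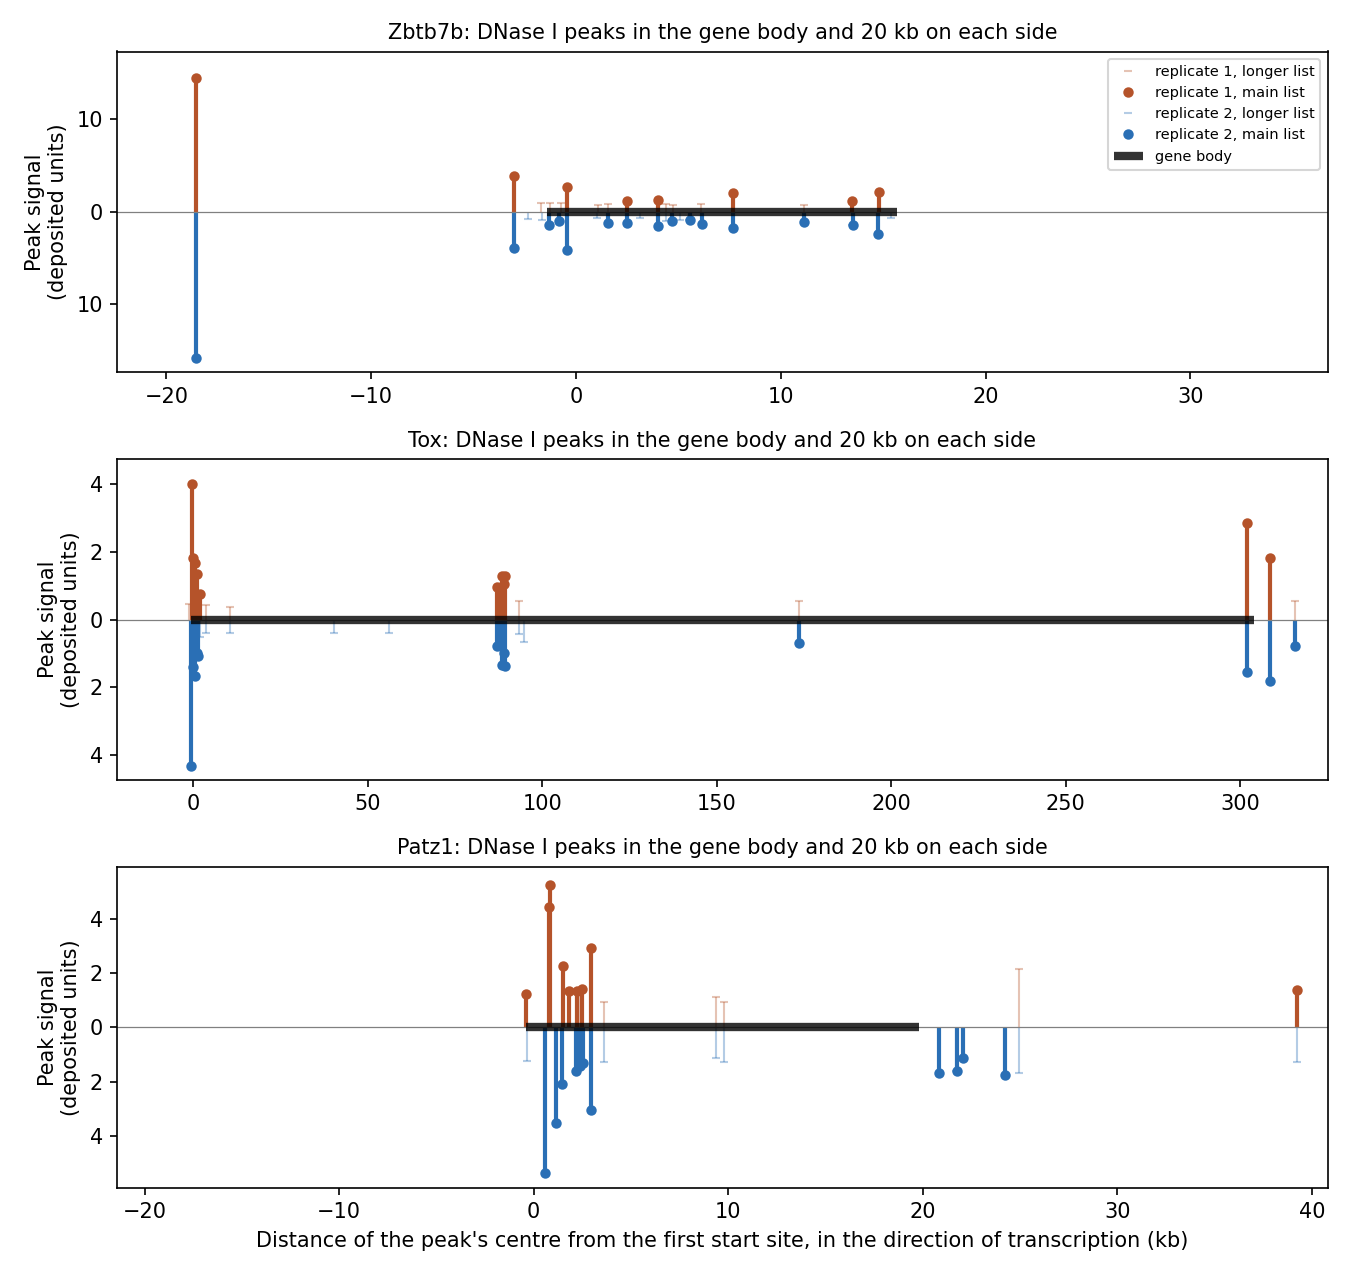
Signal of each peak in deposited units (vertical axis) against the distance of its centre from the first start site in kb along the direction of transcription (horizontal axis), with replicate 1 upward and replicate 2 downward. Points mark the main list, pale dashes the longer list and the black bar the gene body. Zbtb7b carries peaks along its whole body, Tox carries most of them in 3 separate stretches, and Patz1 carries them near its start sites, with 4 peaks of replicate 2 alone past its end.

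Zbtb7b lies on the minus strand of chromosome 3 at 89377644 to 89394776 (ENSMUSG00000028042.15, GRCm38, the same build as mm10). Its 4 start sites in the basic annotation were at 89393362, the distal one, and at 89392069, 89387671 and 89387189. The strongest peak of its own promoters had a signal of 2.65 in replicate 1 and 4.08 in replicate 2, at identical bounds in both libraries. Its centre lay at -0.449 kb, that is, upstream of the distal start, inside an exon of the noncoding transcript Zbtb7b-207 and within 100 bp of the start of Zbtb7b-206 at 89393678. The distal start itself was not inside a peak in either library, and the RefSeq promoter window around it (chr3:89393329-89393628, GRCm38.p6) held no peak of the main list. A peak centred at -3.01 kb from the distal start had 3.85 in replicate 1 and 3.89 in replicate 2. It was the stronger of this pair in replicate 1 and by the mean, and the promoter peak was the stronger in replicate 2. These sequences are shown because they carry the strongest open chromatin of the gene, on the plus strand and 5′ to 3′. Capitals here and below mark motif matches that lay wholly within a footprint of either library extended by 5 bp.
Zbtb7b promoter peak, chr3:89393741-89393880: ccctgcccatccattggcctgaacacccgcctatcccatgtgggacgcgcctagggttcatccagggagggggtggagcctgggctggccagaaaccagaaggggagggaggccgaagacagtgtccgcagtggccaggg
Zbtb7b peak upstream of the distal start, chr3:89396221-89396520: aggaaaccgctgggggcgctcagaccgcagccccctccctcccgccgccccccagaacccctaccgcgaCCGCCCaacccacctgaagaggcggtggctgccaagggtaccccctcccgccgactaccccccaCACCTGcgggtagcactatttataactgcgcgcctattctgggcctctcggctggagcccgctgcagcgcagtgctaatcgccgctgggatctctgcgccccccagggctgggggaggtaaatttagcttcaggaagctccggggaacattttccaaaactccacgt

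The promoter peak held none of the 15 motifs searched, while 2 footprints were listed in it in each library. The longest of these ran from 89393803 to 89393817 in replicate 1 and from 89393802 to 89393828 in replicate 2, so that both libraries listed protection near the centre. The upstream window held the E-box letters CAGGTG, which fit E proteins, at 2 places. Of windows of 300 bases centred on all 50648 peaks of replicate 1, 29.3% held these letters. It held the SP and KLF letters GGGCGG at 2 places, which 35.1% of such windows held. Footprints over 1 match of each kind were listed in replicate 2 alone. The RUNX letters TGTGGT were not in this window, and 21.2% of such windows held them. Only these letters were searched for RUNX, so their absence does not show that the window lacks a Runx site. The silencer of the gene is known to lie upstream of the distal promoter, and whether it coincides with this peak was not tested. The whole locus, chr3:89396141-89396600, held 8 footprints in replicate 1 and 10 in replicate 2, and 6 of the 8 overlapped one of replicate 2.

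The other peaks of Zbtb7b ran along the gene body. The peak in the last exon's untranslated part, 14.8 kb downstream of the distal start, had 2.16 in replicate 1 and 2.37 in replicate 2. The peak in the coding part of that exon, at 13.5 kb, had 1.18 in replicate 1 and 1.41 in replicate 2. At 7.69 kb a peak over an untranslated exon of the transcript Zbtb7b-204 had 2.05 in replicate 1 and 1.74 in replicate 2. Within introns, the peak at 4.01 kb had 1.24 in replicate 1 and 1.49 in replicate 2, and the peak at 2.49 kb had 1.16 in replicate 1 and 1.21 in replicate 2. Each of these 5 loci was listed in both libraries, and each lay between -0.43 and 0.06 in centred log2 ratio. The proximal starts were weaker: the peak over the start at 89387189 had 1.36 in replicate 2 and was listed in replicate 1 only in the longer list, with 0.886. Near the start at 89387671 a peak of 0.881 was listed in replicate 2 and in neither list of replicate 1. The start at 89392069 had a peak of 1.21 in replicate 2 at 1.54 kb, with 0.859 in the longer list of replicate 1. Further promoter peaks of replicate 2 alone lay at 4.67 kb, with 0.939, and at -0.808 kb, with 1.04, and the longer list of replicate 1 gave 0.752 and 0.922 there.

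Replicate 2 listed more sites at Zbtb7b than replicate 1. All 8 peaks of replicate 1 overlapped a peak of replicate 2, and 8 of the 15 peaks of replicate 2 overlapped one of replicate 1. Over the whole lists 79.4% of peaks of replicate 1 and 80.7% of peaks of replicate 2 overlapped the other library. The other 7 had signals of 0.881 to 1.38 in replicate 2. Of these 7, 6 were listed in the longer list of replicate 1 with signals of 0.752 to 0.957. The sites were therefore mostly seen in both libraries, on either side of the limit of the main list. The promoter peak had a centred log2 ratio of -0.80, below the central 95% of all pairs, and 1.08% of the pairs had a lower one. Footprints numbered 48 in replicate 1 and 94 in replicate 2, and 68.8% of the first and 33.0% of the second overlapped one in the other library, against 57.0% and 51.4% over the genome. The strongest peak in the span belonged to a neighbour, the promoter of Flad1, which encodes FAD synthase, with 14.5 in replicate 1 and 15.8 in replicate 2. The other protein-coding neighbours Dcst2, Dcst1 and Lenep had no peak on a start site, and the antisense transcript Gm15417 overlaps the gene, so a peak there cannot be assigned to 1 strand.

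Tox lies on the minus strand of chromosome 4 at 6686353 to 6991557 (ENSMUSG00000041272.11), with 1 start site in the basic annotation at 6990799. Its strongest peak was centred at -0.512 kb, upstream of this start, at chr4:6991041-6991580, with 3.99 in replicate 1 and 4.32 in replicate 2. It covers the start of the noncoding transcript Tox-203 at 6991557. The peak on the coding start had 1.83 in replicate 1 and 1.40 in replicate 2, and the peak 0.468 kb downstream of it had 1.67 in replicate 1 and 1.68 in replicate 2. The signal was thus higher upstream of the coding start than on it in both libraries. A further promoter locus, at 1.17 kb, had 1.34 in replicate 1 and 1.08 in replicate 2. The strongest promoter peak and the strongest one far from any promoter are shown.
Tox promoter peak, central part, chr4:6991161-6991460: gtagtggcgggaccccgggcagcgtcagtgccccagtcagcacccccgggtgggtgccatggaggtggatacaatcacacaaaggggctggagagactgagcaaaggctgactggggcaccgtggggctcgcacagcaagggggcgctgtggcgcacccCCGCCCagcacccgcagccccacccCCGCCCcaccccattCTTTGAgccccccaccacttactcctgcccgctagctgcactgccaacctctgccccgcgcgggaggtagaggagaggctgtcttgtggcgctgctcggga
Tox peak over a coding exon near the 3′ end, chr4:6688741-6688900: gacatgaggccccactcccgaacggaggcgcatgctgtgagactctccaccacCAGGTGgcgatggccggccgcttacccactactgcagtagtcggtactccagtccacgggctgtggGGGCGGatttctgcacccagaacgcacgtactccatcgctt

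The promoter window of Tox held 8 footprints in each library and the SP and KLF letters GGGCGG at 2 places, both in footprints, of which 1 was covered in both libraries. It also held the TCF and LEF letters CTTTGA once, in a footprint of replicate 1 alone, and 16.3% of windows of 300 bases on all peaks held these. TCF7 and LEF1 are factors that bind such letters in thymocytes. The peak near the 3′ end of the gene, 302 kb downstream of the start, overlapped a coding exon, close to the start of the antisense transcript Gm11802 at 6688169, and had 2.85 in replicate 1 and 1.56 in replicate 2. Its centred log2 ratio of 0.69 was the highest at any locus of the 3 genes and within the central 95% of all pairs, with 90.7% of pairs lower. It held CAGGTG and GGGCGG once each, and both matches lay in footprints of both libraries. Of windows of 160 bases on all peaks, 19.9% held the first and 27.2% the second.

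The first intron of Tox held a cluster of 5 loci between 86.9 and 89.3 kb downstream of the start. Their signals were 0.796 to 1.30 in replicate 1 and 0.776 to 1.38 in replicate 2, and all 5 were listed in the main list of both libraries. Their centred log2 ratios ran from -0.26 to 0.08, all within the central 95% of pairs. GC content was 40.4% to 48.8% in these loci, against a median of 56.5% over all peaks of replicate 1, and 60.2% to 67.9% in the 3 Tox peaks nearest the start. Downstream of the gene, a peak 309 kb from the start had 1.83 in replicate 1 and 1.82 in replicate 2, and its position past the 3′ end assigns it to no gene.

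At Tox, of the 12 peaks of replicate 1, 11 overlapped a peak of replicate 2, and 12 of the 14 of replicate 2 overlapped one of replicate 1. These shares of 91.7% and 85.7% stood beside 79.4% and 80.7% over the whole lists, and with so few peaks the difference was not tested. Of the loci listed in replicate 1 alone there was 1, at 1.76 kb, with 0.761 and with 0.509 in the longer list of replicate 2. The 2 loci of replicate 2 alone had 0.770 and 0.691, and both were listed with 0.555 in the longer list of replicate 1. Each main-list locus of Tox was thus in a list of both libraries. The longer lists held further sites in 1 library alone, 1 in replicate 1 and 4 in replicate 2, with signals of 0.456 in replicate 1 and 0.398 to 0.652 in replicate 2. Footprints numbered 43 in replicate 1 and 64 in replicate 2, of which 48.8% and 40.6% overlapped one in the other library, against 57.0% and 51.4% over the genome.

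Patz1 lies on the plus strand of chromosome 11 at 3288874 to 3309083 (ENSMUSG00000020453.17), with start sites at 3289281, 3289993, 3290439 and 3290457. Around these starts the pooled peaks of both libraries joined into 1 open stretch, chr11:3289441-3292020, of 2580 bp. It held 6 peaks in replicate 1 and 6 in replicate 2, with strongest signals of 5.23 in replicate 1 and 5.38 in replicate 2. The strongest peak covered the starts at 3289993, 3290439 and 3290457 in replicate 1 and the start at 3289993 in replicate 2, where the starts at 3290439 and 3290457 lay in a separate peak of 3.52. The first start, 3289281, lay outside the peaks of both libraries. Signal was lower towards its downstream end, with 1.32 to 1.40 in the last 3 peaks of replicate 1 and 1.31 to 1.60 in those of replicate 2. The intron peak and the strongest peak found in 1 library alone are shown.
Patz1 peak in the intron, chr11:3292121-3292360: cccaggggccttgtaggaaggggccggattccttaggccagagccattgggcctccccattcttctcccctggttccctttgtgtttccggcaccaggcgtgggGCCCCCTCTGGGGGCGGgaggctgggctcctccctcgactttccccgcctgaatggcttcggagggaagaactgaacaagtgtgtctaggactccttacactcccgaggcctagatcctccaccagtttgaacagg
Patz1 peak downstream of the gene, replicate 2 alone, chr11:3313384-3313600: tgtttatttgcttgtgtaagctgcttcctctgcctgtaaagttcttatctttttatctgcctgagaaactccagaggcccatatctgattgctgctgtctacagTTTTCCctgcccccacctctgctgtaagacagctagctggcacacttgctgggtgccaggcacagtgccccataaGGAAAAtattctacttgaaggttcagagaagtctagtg

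The intron peak, 2.97 kb downstream of the first start, had 2.94 in replicate 1 and 3.05 in replicate 2, so that the libraries were close there. It held a CTCF match, in a footprint of replicate 1, which shares its last base with a GGGCGG match in a footprint of replicate 2, and 5.74% of windows of 240 bases held a CTCF match. CTCF organises chromatin loops, and a match of letters does not show its binding. The start of the noncoding transcript Patz1-211 at 3292195 lay inside this peak.

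Downstream of Patz1 the libraries differed. Replicate 2 had 4 peaks between 20.8 and 24.2 kb from the first start, with signals of 1.68, 1.62, 1.12 and 1.75. Replicate 1 had no peak there in either list and no base with a listed q-value at these 4 loci. By contrast, a site 25.0 kb from the first start was in the longer lists of both libraries, with 2.15 in replicate 1 and 1.67 in replicate 2, and in the main list of neither. The peak of 1.75 held the NFAT letters GGAAAA at 2 places, both in footprints, and 13.8% of windows of 217 bases held them. Outside footprints it held the GATA letters AGATAA at 2 places, which 5.50% of such windows held, and the STAT letters TTCNNNGAA once, which 4.94% held. The noncoding transcript Gm11944 has an exon under the peak of 1.62, so that these peaks are not assigned to Patz1. Of the peaks in replicate 1 alone, the one on the start of the noncoding transcript Patz1-209 at 3288874 had 1.23, and the longer list of replicate 2 also gave 1.23 there. The other, 39.2 kb from the first start, had 1.39, with 1.29 in the longer list of replicate 2. This peak lay 1755 bp from the nearest protein-coding start site, that of another gene outside the span, so it is not assigned to Patz1. Footprints of the span numbered 44 in replicate 1 and 54 in replicate 2, of which 63.6% and 48.1% overlapped one in the other library, against 57.0% and 51.4% over the genome.

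Over the 3 genes there were 37 separate loci, of which 21 were in the main list of both libraries, 3 in replicate 1 alone and 13 in replicate 2 alone. By gene, the share of peaks that overlapped the other library in replicates 1 and 2 was 100% and 53.3% at Zbtb7b, 91.7% and 85.7% at Tox and 77.8% and 63.6% at Patz1, beside 79.4% and 80.7% over the whole lists. Of the 16 loci listed in 1 library alone, 11 were in the longer list of the other. Among the 21 shared loci the centred log2 ratio was below 0 at 16 and above 0 at 5, with a median of -0.22, where the median of all pairs is 0 by construction. Signals in the spans of these genes thus leaned towards replicate 2. By span, the ratio was below 0 at 7 of 8 loci of Zbtb7b, 7 of 11 of Tox and 2 of 2 of Patz1. Those below 0 include the promoter of the neighbour Flad1, at -0.30. They also include the peak past the 3′ end of Tox, at -0.17, which was assigned to no gene.

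**Figure D3:**
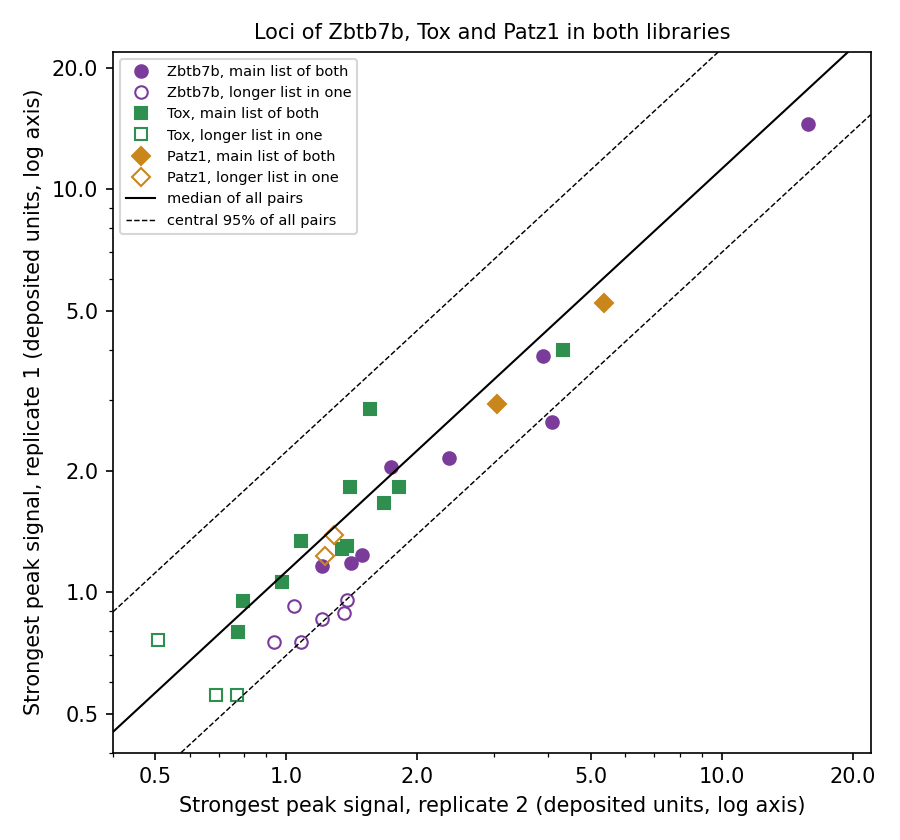
Strongest peak signal of each locus in replicate 1 (vertical axis) against replicate 2 (horizontal axis), both in deposited units on log axes. Filled symbols are the 21 loci in the main list of both libraries and open symbols the 11 loci whose signal in 1 library came from its longer list, while the 5 loci with no peak in the other library are not drawn. The solid line is the median ratio of all 37494 pairs and the dashed lines hold the central 95%. The Zbtb7b promoter peak, with 2.65 in replicate 1 and 4.08 in replicate 2, lies below the lower dashed line.

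The same lean was seen at other thymocyte genes. All 3 genes had more peaks in replicate 2 than in replicate 1, as did 10 of 12 thymocyte marker genes. Of 21938 protein-coding genes, 4328 (19.7%) did so, 6589 had more in replicate 1 and 11021 had equal counts. The many ties lower the share of 19.7%. The promoter signal ratio was below the median of all pairs at all 3 genes, against 53.7% of genes open in both libraries. It was below it at each of the 11 open thymocyte markers as well, with a median centred log2 ratio of -0.33. The fibroblast genes Col1a1 and Pdgfra went the other way, with 3.82 and 1.93 in replicate 1 and 2.13 and 1.04 in replicate 2, and so did the epithelial gene Epcam, with 1.64 in replicate 1 and 1.14 in replicate 2. The remaining fibroblast markers Col1a2 and Col3a1 had no promoter peak in the main list. The endothelial gene Pecam1 had 2.41 in replicate 1 and 3.07 in replicate 2. By peak number the other lists were mixed. More peaks in replicate 2 were found at 3 of 5 B cell, 2 of 5 myeloid and 2 of 5 epithelial genes. Fewer were found at 2, 0 and 1 of these. The fibroblast list had 0 of 4 genes with more and 3 with fewer. The endothelial and adipocyte lists each had 0 of 3 with more and 1 with fewer, and the erythroid list had 1 and 0. The part of the cell makeup of the libraries in the differences at Zbtb7b, Tox and Patz1 was not tested.

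**Figure D4:**
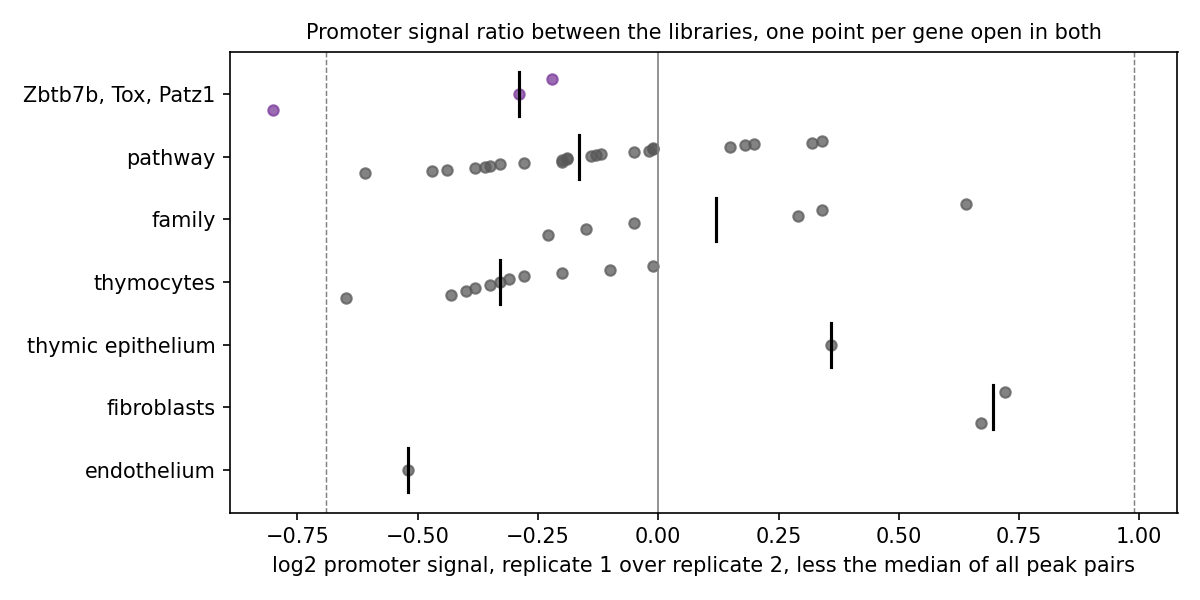
Centred log2 ratio of promoter signal, replicate 1 over replicate 2 (horizontal axis), with 1 point per gene open in both libraries, grouped by list (vertical axis), and a black bar at the median of each list. The vertical lines mark 0 and the central 95% of all peak pairs. Zbtb7b, Tox and Patz1 and all 11 thymocyte markers lie below 0, while both fibroblast genes and the epithelial gene lie above it.

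Most genes that work with these factors in CD4 and CD8 lineage choice were open. Of 25 such genes, 24 (96.0%) were open in both libraries, against 53.6% of all genes, and their median promoter signal was 7.17, against 5.59 over all open genes and 4.15 over Zbtb7b, Tox and Patz1. The strongest was Cbfb, the partner subunit of Runx factors, with 13.4 in replicate 1 and 16.5 in replicate 2. Next was Mta2, of the NuRD corepressor complex, with 12.6 in replicate 1 and 11.6 in replicate 2. Irf1, an interferon response factor needed for CD8 cells, came next with 11.3 in replicate 1 and 11.4 in replicate 2. Among regulators of Zbtb7b, Gata3, which acts before ThPOK in the CD4 lineage, had 9.35 in replicate 1 and 8.32 in replicate 2, and Myb had 5.06 in replicate 1 and 4.55 in replicate 2. Of the Runx genes, Runx1 had 4.90 in replicate 1 and 4.96 in replicate 2. It was below Myb in replicate 1 and above it in replicate 2. Runx3, which directs the CD8 lineage, had 2.08 in replicate 1 and 2.82 in replicate 2. Of the coreceptor genes, Cd8a had 7.87 in replicate 1 and 9.05 in replicate 2 and Cd8b1 had 8.63 in replicate 1 and 8.77 in replicate 2. Cd4 was the exception, with no promoter peak in the main list of replicate 1, 1.79 in replicate 2, and 1.38 in replicate 1 in the longer list. Gata3, Myb, Runx1, Runx3, Cd8a and Cd8b1 were named here after their values were seen. More peaks in replicate 2 than in replicate 1 were found at 14 of the 25 genes, and fewer at 6.

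Relatives of the 3 factors had both stronger and weaker promoters. Of 7 relatives, 6 were open in both libraries. Maz, a zinc finger factor related to Patz1, had 20.1 in replicate 1 and 20.8 in replicate 2. Zbtb7a, a BTB and zinc finger relative of Zbtb7b, had 17.8 in replicate 1 and 17.4 in replicate 2, and Tox4 had 14.1 in replicate 1 and 12.9 in replicate 2. Each of these exceeded Zbtb7b, Tox and Patz1 in both libraries. The relatives Tox2 and Tox3 had 2.16 and 1.64 in replicate 1 and 1.51 and 0.933 in replicate 2. Vezf1, a zinc finger factor in the same list, was below Patz1 in both libraries, with 2.73 in replicate 1 and 1.98 in replicate 2. Zbtb7c had no promoter peak in the main list of replicate 2 and 0.671 in replicate 1, and the longer list of replicate 2 gave 0.450.

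In the footprints of the spans, matches to the E-box letters CAGGTG were found in 3 of 48 at Zbtb7b in replicate 1 and 5 of 94 in replicate 2, or 6.25% and 5.32%, against 2.36% and 2.27% of all footprints. At Tox the shares were 4.65% in replicate 1 and 1.56% in replicate 2. At Patz1 they were 4.55% in replicate 1 and 3.70% in replicate 2. Matches to the RUNX letters were found in 0 of 48 at Zbtb7b in replicate 1 and 1 of 94 in replicate 2. They were found in 1 of 43 and 4 of 64 at Tox in replicates 1 and 2, and in 0 of 44 and 0 of 54 at Patz1. Over all footprints 1.77% in replicate 1 and 1.71% in replicate 2 held them, and Runx sites with other letters were not searched. These shares rest on 5 matches or fewer each and were not tested. By a distance over peaks per 100 kb and promoter signal in both libraries, the genes of similar length most like Zbtb7b were Vps51, Sept1 and Astl, at distances of 0.541, 0.548 and 0.557. Those most like Tox were Man2a1, Slco3a1 and Ino80d, at 0.256, 0.268 and 0.337. Those most like Patz1 were Ushbp1, Atrip and Fermt3, at 0.156, 0.166 and 0.176. The nearest gene to Zbtb7b was thus farther away than the nearest to either of the others, over 4 values from 2 libraries.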

How the data were processed

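DNase-seq was run on thymus of 2 libraries of 1 group. Per the file headers, files were made per library on mm10; no aligner, peak caller or setting is named in them. The authors' peak lists hold 1 signal value per peak, deposited without a stated scale, and the footprint lists give positions with the constant score 0.01. The q-values that the authors deposited cover base runs up to 0.05. Reads of a hybrid were placed on 1 genome, so alleles were not separated. Sequencing depth is unknown.

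From these files, peaks of the shorter list (main) and the longer list were counted in each gene and 20 kb on each side, with 1 bp as the least overlap, in Python 3.11.15 with pandas 2.3.3; sequence was read from GRCm38 with pysam 0.24.0. Overlapping peaks were joined into loci. Motifs were searched on both strands: TGTGGT for RUNX, GGAAGT for ETS, AGATAA for GATA factors, CTTTGA for TCF and LEF, CAGCTG and also CAGGTG for E-boxes, TGGGAA for Ikaros, AACTGNC for MYB, GGGCGG for SP and KLF, GGAAAA for NFAT, TGANTCA for AP-1, TGACGTCA for CRE, TTCNNNGAA for STAT, AAGATGGC for YY1, and a core consensus for CTCF. Named were all promoter peaks, the 5 strongest other loci, the strongest in 1 library alone, the 3 strongest and all unopened list genes, and the 3 genes nearest by Euclidean distance over log2 of peaks per 100 kb plus 1 and of promoter signal plus 0.1. The genes, lists and motifs were chosen with earlier results of these data known. The sequence of the Patz1 promoter peak is not reported here. Overlap counting was tested on simulated intervals. Alternatives were the longer list, flanks, stronger peaks, joining, promoter windows, overlap and each library alone.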

Additional observations from a re-analysis of the deposited data

How the results depend on the processing

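Values here are means of 2 libraries, for Zbtb7b, Tox and Patz1 in this order. With the longer list, peaks numbered 19.5 and 20.0 at Zbtb7b and Tox against 11.5 and 13.0, with densities of 34.1, 5.79 and 24.9 per 100 kb against 20.1, 3.77 and 16.6, and the share of Patz1 peaks that overlapped the other library was 88.2% against 70.7%. With only peaks at or above the median signal of the list, counts were 5.5, 4.5 and 6.5, against 10 at Patz1 in the main list, and densities were 9.63, 1.30 and 10.8. With peaks within 500 bp joined, Tox and Patz1 had 6.0 and 3.5 peaks, at densities of 1.74 and 5.81. The gene body alone gave densities of 55.4 at Zbtb7b and 37.1 at Patz1 and a share of 93.8% at Patz1, and a flank of 10 kb gave 23.6 at Patz1. With 50% of a peak as the least overlap, the share was 81.0% at Tox, against 88.7%, and 56.1% at Patz1. Footprints inside main peaks numbered 45.5 at Zbtb7b, against 71.0. Using each library alone, the mean of 11.5 peaks at Zbtb7b ranged from 8.0 to 15.0 and its 71.0 footprints from 48.0 to 94.0. Strongest promoter signals did not move with the longer list, either promoter window or the start sites of all transcripts. The last of these, and leaving out peaks at promoters of neighbours, were chosen after seeing the data. Apart from the values of single libraries, which must lie within 1 SD of their mean, 52 of 75 alternative values moved by no more than the spread between libraries, or for counts stayed within 1.5 times. The 52 include the strongest promoter signals that did not move. Each of these was read from the same top peak under every such setting, so they say little about the other measures. The causes were not tested. No paired analysis was possible because there was 1 group. Unknown depth limits what an unlisted peak shows.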

Other observations

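The main and longer lists did not rank sites by signal alone. At Patz1 the highest signal found in the longer list only was 2.15 in replicate 1 and 1.67 in replicate 2, while the main list of the same span reached down to 1.23 and 1.12. The lowest deposited q-value in the longer-list peak was 0.00455 in replicate 1 and 0.0255 in replicate 2. In the weakest main-list peak it was 0.000296 in replicate 1 and 0.00013 in replicate 2. How the authors divided the lists was not tested. At Zbtb7b the highest signals found in the longer list only were 0.966 and 0.946, against lowest main-list signals of 1.16 and 0.881, and at Tox they were 0.555 and 0.652, against 0.761 and 0.691.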
